A study of Drosophila melanogaster with 2 samples.

Results

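The 300 strongest binding sites of a green fluorescent protein (GFP) fusion of CG34376 in fly embryos were examined. They are the 300 lines of highest deposited signal in a thresholded list that holds 6725 others, and so were selected on that signal. Ranks 21 to 300, with 280 peaks, received most attention. The data are from chromatin immunoprecipitation followed by sequencing (ChIP-seq), in which DNA bound by a protein is recovered with an antibody and its position on the genome is read as a peak. Whole Drosophila melanogaster embryos of both sexes, 0 to 24 h old, carried a stably inserted transgene that makes CG34376 with GFP at its C terminus. Both libraries come from that strain, are numbered biological replicates 2 and 3, and form 1 group. There is therefore no untreated or untagged group here and no comparison between conditions. Such embryos hold all tissues and many stages, and the labels give neither the promoter that drives the fusion nor its level relative to the endogenous protein. The labels disagree on 1 point: a line of free text names each library as input control, while the assay, the antibody field and a separately listed control describe an immunoprecipitated sample, as which they were treated.

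A transcription factor reaches a gene either at its promoter, the DNA around the transcription start, or at distal elements that may lie in introns or between genes. The summit of a peak, the base of highest signal, marks where most recovered fragments overlap, and DNA motifs near it are candidates for contact by the factor or by proteins bound beside it. In the fly, GATA sites are bound by GATA factors, GAGA repeats by the GAGA factor, and the DNA replication-related element (DRE) by Dref at promoters of widely used genes. The gene named for each peak is that of the nearest transcription start in Ensembl release 115 (BDGP6.54), which does not show that the peak regulates it. A summit within 500 bp of a start was called promoter, and all others are called distal.

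Sequence is shown for 5 sites because they are the strongest of ranks 21 to 300 on 2L, 3L, 3R and X that hold a GATA site, a long GAGA repeat or a DRE, at a promoter and, where there was one, at a distal site. Each run is 201 bases of the plus strand of dm6 from RefSeq, centred on the summit, with the motif in capitals (on the plus strand or as its reverse complement). The elav window, chrX:523410-523610 at rank 22, holds GATAAG 20 bp from the summit. The distal window nearest to cbt, chr2L:484589-484789 at rank 38, holds 2 copies, the nearer 30 bp from the summit. The Ptpmeg2 window, chrX:9640709-9640909 at rank 24, and the distal Tlk window, chrX:3742108-3742308 at rank 25, hold the GAGA repeat at their edges, 94 and 93 bp from the summit. The eEF1gamma window, chr3R:29220060-29220260 at rank 54, holds the DRE 25 bp from the summit. No distal site among the 300 held this motif, and 0.38% of the other distal sites did.
elav promoter: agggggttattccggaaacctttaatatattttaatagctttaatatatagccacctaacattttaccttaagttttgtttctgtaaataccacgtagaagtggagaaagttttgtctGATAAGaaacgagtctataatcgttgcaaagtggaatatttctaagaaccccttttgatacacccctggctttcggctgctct
cbt distal: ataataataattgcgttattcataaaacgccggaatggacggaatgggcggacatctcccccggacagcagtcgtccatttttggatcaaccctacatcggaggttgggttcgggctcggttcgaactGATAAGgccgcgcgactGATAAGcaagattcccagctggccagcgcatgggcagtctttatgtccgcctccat
Ptpmeg2 promoter: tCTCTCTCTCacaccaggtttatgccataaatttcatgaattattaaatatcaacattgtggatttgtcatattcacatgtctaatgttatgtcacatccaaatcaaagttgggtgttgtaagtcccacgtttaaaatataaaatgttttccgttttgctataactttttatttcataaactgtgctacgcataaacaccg
Tlk distal: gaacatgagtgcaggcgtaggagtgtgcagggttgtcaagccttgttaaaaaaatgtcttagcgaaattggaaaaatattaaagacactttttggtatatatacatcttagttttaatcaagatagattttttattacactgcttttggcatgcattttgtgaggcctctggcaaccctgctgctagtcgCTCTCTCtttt
eEF1gamma promoter: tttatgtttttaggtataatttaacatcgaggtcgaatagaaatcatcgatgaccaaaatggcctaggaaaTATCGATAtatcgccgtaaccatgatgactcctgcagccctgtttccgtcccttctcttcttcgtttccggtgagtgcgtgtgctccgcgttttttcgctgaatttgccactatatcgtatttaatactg

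Signal fell smoothly with rank, with no gap at the border of the set. It ran from 3316 at rank 1 through 1644 at rank 21, 1052 at rank 100 and 848 at rank 200 to 732 at rank 300, in the authors' units. The median was 945 for the 300 peaks and 927 for ranks 21 to 300, against 246 for the other 6725 peaks. Just inside the border, ranks 296 to 300 were nearest to Sfxn1-3, CG8519, elm, CG43736 and dlt, with signals from 733.2 to 731.66. Just outside, ranks 301 to 305 were nearest to shn, Unc-115a, RpLP1, RpS18 and px, with signals from 731.63 to 728.7. The set is thus a stretch of a continuous ranking and not a separate class. All 300 peaks had the highest −log10 q value in the list, 3.99, which 4538 of the other peaks also had.

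**Figure D1:**
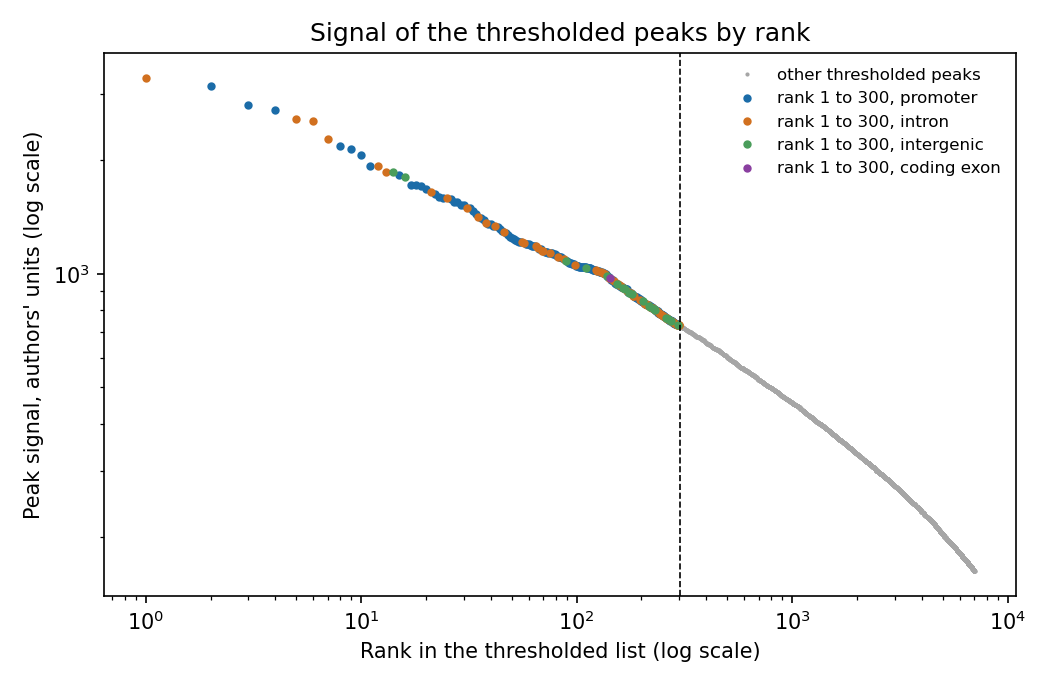
Deposited signal against rank for the thresholded peaks, both on log scales, with the 300 strongest coloured by feature class. The dashed line marks the border at rank 300, where the signal passes from 732 to lower values with no step.

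The strongest sites were looked up in the lists of both replicates. Of the 300 peaks, 239 (79.7%) lay within 100 bp of a top-300 summit in replicate 2 and also in replicate 3. Of the other 6725 peaks 0 did, so the share of 3.4% over all thresholded peaks consists of these same 239. Another 35 matched the top 300 of replicate 2 alone, 24 that of replicate 3 alone, and 2 neither. Among the 600 highest candidates, 296 peaks matched in both replicates, where 6.89% of all thresholded peaks did. Among as many candidates as the thresholded list holds, 297 (99.0%) did, where 73.5% of all thresholded peaks did. That match was not particular to the set: the share was 99.0% in ranks 301 to 1000, 94.5% in ranks 1001 to 3000 and 56.7% in the lower ranks. Both replicates entered the pooled signal that chose the peaks, so these counts describe the selection. The summit in a replicate lay a median of 7.0 bp (replicate 2) and 8.0 bp (replicate 3) from the pooled summit.

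Rank within the set varied between the replicates. Ranks reached 427 in replicate 2 and 1054 in replicate 3, and the ranks in both replicates had a Spearman's rho of 0.756 over the 300 peaks, which share libraries and regions. The larger rank was a median of 1.392 times the smaller, and 252 peaks (84.0%) had ranks within a factor of 2. Over a factor of 3 were 4 peaks. The widest gap was at Drat, a gene of the alcohol dehydrogenase-like family, where the second peak of the promoter (rank 92) had rank 45 in replicate 2 and rank 472 in replicate 3, with signals of 708 and 284. Its rank 45 belongs to the candidate that also matched the first Drat peak (rank 64), so no separate replicate 2 summit was matched there. CG5953 (rank 289) had ranks 232 and 1054. The second peak at ph-p, which encodes the Polycomb group protein Polyhomeotic proximal, had ranks 73 and 253, and an intronic peak of CG34376 itself (rank 215) had ranks 138 and 467. The next widest were COX7AL2, Sin3A, a corepressor scaffold, RpS27, 14-3-3zeta, MFS10 and the nutrient-responsive factor sug, with ratios from 2.89 down to 2.72. Of these 10 peaks, RpS27 and sug ranked higher in replicate 3 and the other 8 higher in replicate 2.

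**Figure D2:**
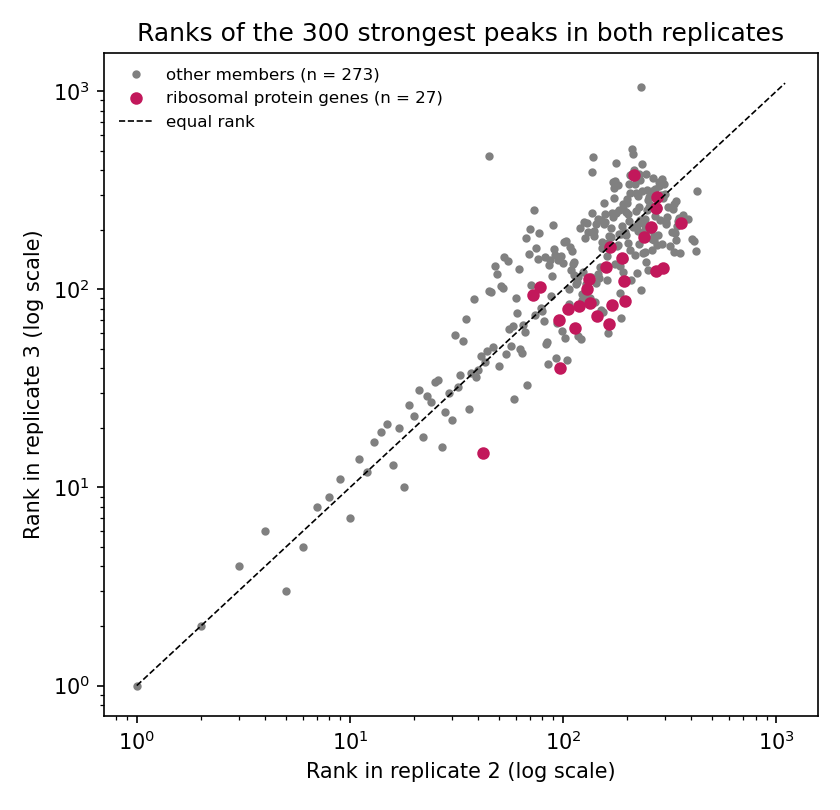
Rank of each of the 300 peaks in replicate 2 (x axis) and in replicate 3 (y axis), on log scales, with peaks nearest to cytosolic ribosomal protein genes in magenta. Of the ribosomal protein peaks, 23 of 27 lie below the line of equal rank, and Drat (45 and 472) and CG5953 (232 and 1054) lie farthest above it.

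Most of the strongest sites were promoters, and within promoters they sat upstream of the start. Of the 300 summits, 210 (70.0%, 95% Wilson interval 64.6 to 74.9) were at promoters, 69 (23%) in introns, 20 (6.67%) between genes and 1 in a coding exon (of Pde1c, with CycY as the nearest start). None lay in an untranslated region outside the promoter window, where 0 of 300 allows a share of up to 1.0% (3 of 300). Among the other thresholded peaks 60.8% (59.7 to 62.0) were at promoters and 29.4% in introns. Within ranks 21 to 300 the counts were 198 promoter, 63 intron, 18 intergenic and 1 coding exon. The 300 highest candidates of the replicates taken alone gave 70.8% ± 0.236 (SD, n = 2) at promoters. Intervals cover counting of peaks only, and these shares were set side by side without a test.

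Of the 210 promoter summits, 162 (77.1%, 71.0 to 82.3) were upstream of the nearest start, against 60.6% (59.1 to 62.1) of the other promoter peaks. The share was 67.1% in ranks 301 to 1000, 64.7% in ranks 1001 to 3000 and 57.3% in the lower ranks, so it fell with rank across the whole list. The position that carried this was 101 to 300 bp upstream, which held 94 summits (44.8%, 38.2 to 51.5) of the strongest set and 24.5% (23.2 to 25.8) of the others. Within 50 bp of the start were 44 (21%) of the strongest, 22.1% in ranks 301 to 1000 and 31.0% of all the others. The highest 50 bp bin was 151 to 200 bp upstream in the strongest peaks, with 15.2%, and the last 50 bp before the start in the others, with 16.3%. Starts on both strands lay within 500 bp of 65 promoter summits (31.0%), as of 27.0% of the others. In the deposited ranks the strong sites were therefore more often set back from the start than the weaker ones, by values that were not tested.

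**Figure D3:**
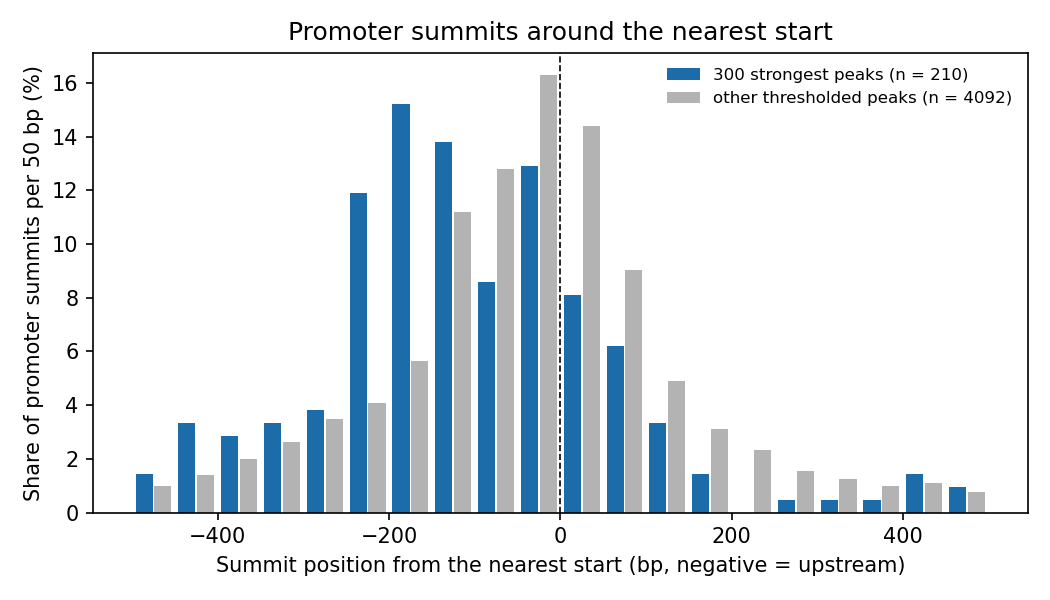
Share of promoter summits in bins of 50 bp around the nearest start (x axis, negative values upstream) for the 300 strongest peaks (blue, 210 promoter summits) and the other thresholded peaks (grey, 4092). The blue bars are tallest at 151 to 200 bp upstream (15.2%), and the grey bars in the last 50 bp before the start (16.3%).

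**Figure D4:**
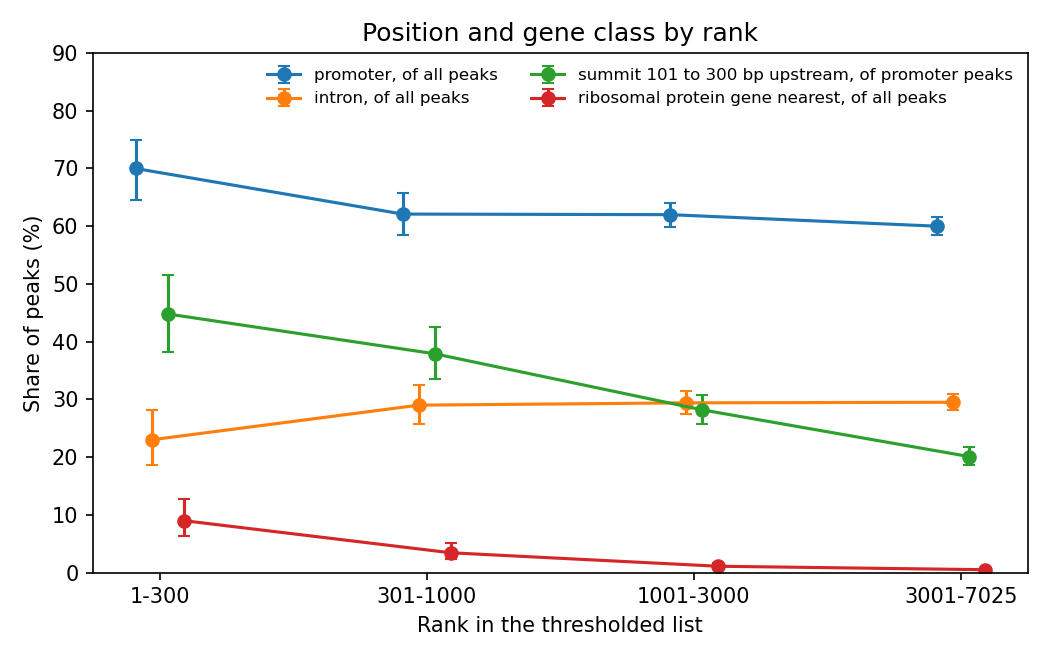
Share of peaks in 4 ranges of rank that are at promoters, in introns or nearest to a cytosolic ribosomal protein gene, and share of promoter peaks with the summit 101 to 300 bp upstream of the start, with 95% Wilson intervals. The upstream position falls from 44.8% in ranks 1 to 300 to 20.1% in the ranks after 3000.

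The distal sites lay at a wide range of distances from the nearest start, for which they are named. The 90 distal summits had a median distance of 1371 bp to a start, from 515 to 20100 bp, against 1790 bp for the other distal peaks. Of the 90, 30 lay within 1 kb of that start, 30 more than 2 kb away and 13 more than 5 kb away. Of the 69 intronic summits, 56 were nearest to a start of the gene that holds them. The other 13 were nearer to another gene. The clearest case was a pair of peaks in an intron of ush, which encodes Friend of GATA, whose nearest start is that of cbt, a Krüppel-like transcription factor: they had ranks 5 and 38 and lay 1392 and 5001 bp upstream of cbt. Another of this kind, in an intron of CG34376, was nearest to Rpn7, a proteasome lid subunit, 5861 bp away (rank 185).

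Several sites lay at genes for regulators of transcription and chromatin. At rank 36, the promoter of Hnf4, a nuclear receptor of fatty acid and sugar metabolism, had a summit 123 bp upstream of the start (chr2L:8699706-8700369), with ranks 37 and 38 in replicates 2 and 3. The intron of GATAd, a GATA family factor, held rank 42 (signal 1339), with ranks 34 and 55. Chro, which encodes the chromatin protein Chromator, had rank 32 with a summit 96 bp downstream of its start, and Cp190, an insulator cofactor, had rank 127 with a summit 133 bp upstream. Adf1, a promoter-binding factor, held rank 56 in its intron, with ranks 104 and 44. The list that holds Adf1, of GAGA and housekeeping promoter factors, was nearest to 5 peaks of the set (1.67%) and 0.456% of all, 3 of the 5 at CG34376, which the list contains. The zinc finger gene shn, a repressor in the Dpp pathway, carried ranks 41 and 224, and 18 thresholded peaks in all were nearest to it. The list of GATA and Friend of GATA factors was nearest to 1 peak of the set (0.333%, against 0.242% of all). For the Dpp and Activin list the count was 2 (0.667%, against 0.612%), and for the insulator proteins 2 (0.667%, against 0.142%).

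The tagged gene was itself the nearest gene of 3 of the 300 peaks. The first lay 21 bp upstream of its start (rank 40, signal 1355, chr3R:22447127-22448381), with ranks 59 and 28 in replicates 2 and 3. The others were intronic, 2170 bp (rank 160) and 6454 bp (rank 215) downstream. The part of the transgene in the reads of these peaks was not tested.

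Transcription factors of stress, growth and nutrient responses were among the nearest genes. On a list of 37 immediate-early and stress factors, 8 peaks (2.67%) were nearest to a member, and 1.75% of all thresholded peaks were. Atf3, a stress-induced leucine zipper factor, had rank 62 with a summit 181 bp upstream (ranks 65 and 66 in the replicates). Sugarbabe (sug), a sugar-induced zinc finger factor, had rank 100, with ranks 163 and 60. NFAT and Mef2, a factor of muscle and fat body, had intronic sites at ranks 155 and 164. The promoter of cnc, which encodes the fly Nrf2 of the antioxidant response, had rank 190, and the intron of sima, the fly hypoxia-inducible factor, rank 249. On the insulin and TOR list the members were REPTOR, a factor active when TOR is inhibited, with ranks 115 and 294, and Sesn, a stress-induced inhibitor of TOR signalling, with rank 173. Their 3 peaks are 1.0% of the set, where 1.31% of all thresholded peaks were nearest to that list. Of the ecdysone response list, Eip75B, a nuclear receptor, had rank 239, with ranks 178 and 435.

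Genes of sugar metabolism were among the nearest genes. The list of glycolysis and pentose phosphate enzymes was nearest to 7 of the 300 peaks (2.33%), against 0.968% of all thresholded peaks, and 4 of the 7 lay in ranks 21 to 300. The 7 include Ugalt (rank 2), a UDP-galactose transporter that the list also holds, with a summit 49 bp upstream of its start. Enolase (Eno, rank 27) had a summit 250 bp upstream of its start (chr2L:1727620-1728278), with signals of 863 and 683 in replicates 2 and 3. Pgm1, a phosphoglucomutase, had rank 184 with a summit 184 bp upstream. Pgm2a had rank 219 at 2721 bp downstream, and Gpo1, a mitochondrial glycerol-3-phosphate dehydrogenase, rank 251 at 173 bp upstream. From the mitochondrial list, the protease gene Lon had rank 79 at 119 bp upstream, and Idh, an isocitrate dehydrogenase, rank 292 at 22 bp. The summits of Eno, Pgm1, Gpo1 and Lon lay from 119 to 250 bp upstream. Those of Ugalt (49 bp upstream), Pgm2a (2721 bp downstream) and Idh (22 bp) lay outside this range. The range was therefore not shared by all the members of these lists named here.

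Genes of lipid and central metabolism outside those lists were also present, and the following were chosen after their values were seen. Got2, an aspartate aminotransferase, had rank 73, Glyp, glycogen phosphorylase, rank 153 and Fum1, fumarase, rank 210. AcCoAS, acetyl-CoA synthetase, had 2 of its 6 thresholded peaks in the set, at ranks 259 and 262. Lpin (rank 118) and bmm (rank 264), which were on the list of gut and fat body regulators, encode the phosphatidate phosphatase Lipin and the triglyceride lipase Brummer, and Seipin (rank 162) acts in lipid droplet formation. The carnitine palmitoyltransferase gene whd had rank 280, the ethanolamine kinase gene eas rank 209 and Pect, which acts after eas in phosphatidylethanolamine synthesis, rank 261. ERR, a nuclear receptor that drives glycolytic genes in larvae, had rank 202. No count or background belongs to this choice, so it describes single sites only.

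Cytosolic ribosomal protein genes had more peaks in the set than any other list of protein-coding genes. They were nearest to 27 of the 300 peaks (9.0%, 6.26 to 12.8), all of them in ranks 21 to 300, and to 1.32% of all thresholded peaks. The share fell from 3.43% in ranks 301 to 1000 to 0.497% after rank 3000. RpS27 was the strongest, at rank 26 (signal 1581, chr3R:25247230-25247746), followed by RpL32 at rank 55 (chr3R:30045940-30046602), RpL13 at rank 74, RpS25 at rank 83, RpL34b at rank 85 and RpS10b at rank 90. The lowest was RpL37A at rank 272. These genes encode the proteins of both subunits of the ribosome, and the translation elongation factor gene eEF1gamma stood beside them at rank 54.

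The ribosomal protein sites lay close to the start. Of the 27, 26 were at promoters and 24 within 100 bp of the start, with a median distance of 29.0 bp. The other 273 peaks had a median of 228.0 bp, and the 184 promoter peaks among them 162.0 bp. The exception was the peak named for RpS23 (rank 260), an intergenic site 1187 bp upstream. Ribosomal protein peaks outside the set were placed alike: of 66, 63 were at promoters and 51 within 100 bp of a start. Of all 76 promoter summits of the set that lay within 100 bp of a start, 24 were at ribosomal protein genes, and of the 94 summits 101 to 300 bp upstream 2 were. Without ribosomal protein genes, 77.7% of the promoter summits were upstream of the start.

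The replicates ranked these genes differently. In replicate 3, 23 of 27 (85.2%) ranked higher than in replicate 2, and 119 of the other 273 (43.6%) did. RpS27 had ranks 42 and 15 in replicates 2 and 3, with signals of 723 and 862. RpL32 had ranks 97 and 40, RpL23A ranks 272 and 124, and RpLP0, a stalk protein, ranks 295 and 128. Against this direction, RpL34b had ranks 78 and 103, and the distal RpS23 site ranks 215 and 376. Among the 66 ribosomal protein peaks outside the set, 34 (51.5%) ranked higher in replicate 3, and of the 24 up to rank 1000, 15 (62.5%) did. RpLP1 and RpS18, just outside the border, ranked higher in replicate 2, with ranks 264 and 388 and ranks 245 and 511. The 52 other peaks of the set within 100 bp of a start ranked higher in replicate 3 in 61.5% of cases. With 1 library on each side, this difference has no replicate check.

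Of the remaining groups, most had few peaks in the set. The regulators of neurons and glia were nearest to 5 peaks (1.67%, against 1.28% of all). Among them elav, which encodes a neuronal RNA-binding protein, had rank 22, with ranks 19 and 26, and moody, a receptor of the blood-brain barrier, had rank 105. On the gut and fat body list 4 peaks were counted (1.33%, against 1.1% of all), with fkh, a forkhead factor of gut and salivary gland, at rank 282. Both Polycomb and Trithorax peaks (0.667%, against 0.541% of all) were at ph-p (ranks 95 and 167), and the single mitochondrial ribosome gene below rank 20 was mRpL23 (rank 88). CycB, a mitotic cyclin, and the CycY site lay at ranks 175 and 143, both distal. The ubiquitin ligase gene POSH had rank 266, the small GTPase Arl1 rank 102, the kinase Mkk4 of the JNK cascade rank 116 and the clock factor Pdp1 rank 220. Shot, a cytoskeletal linker, had rank 158, Col4a1, a basement membrane collagen, rank 211, and spen, an RNA-binding corepressor, rank 242. The cytoskeleton and adhesion list had 4 peaks (1.33%, against 2.73% of all), the kinases and phosphatases 2 (0.667%, against 1.49%) and the solute carriers 5 (1.67%, against 1.74%). Of the transporters, SLC5A11, MFS10 and Oatp33Ea had ranks 47, 84 and 281.

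No peak of the set was nearest to a member of the lists for Hox and homeobox genes, the EGFR and Ras, Notch, Wingless and Hedgehog, Hippo, or JAK-STAT and Toll pathways, or the vacuolar ATPase and autophagy. Of all thresholded peaks, 0.413%, 0.783%, 0.299%, 0.584%, 0.327%, 0.698% and 0.498% were nearest to these 7 lists in the same order. Taken singly, shares of this size would give about 1 or 2 peaks of 300, and a count of 0 again allows up to 1.0% in each. These 7 lists were put together because they had 0 peaks in the set, and their joint share was not computed. Altogether, 119 peaks (39.7%) were nearest to a gene on any of 35 lists, against 32.5% of all thresholded peaks. In ranks 21 to 300 the count was 104 of 280 (37.1%).

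The sites nearest to noncoding genes made up 29 of 300 (9.67%), against 9.0% of the other peaks. Among them snRNA:7SKa, the RNA that holds the elongation factor P-TEFb inactive, had rank 103 with a summit 161 bp downstream of its start. The locus of mir-277, a microRNA of branched-chain amino acid metabolism, had a summit 2174 bp upstream (rank 98). The heat-shock-induced lncRNA:Hsromega had rank 269, with ranks 211 and 510, and a summit 143 bp downstream of its start. The nearest gene was a tRNA gene for 3 peaks (1.0%, against 0.811% of all), at ranks 106, 180 and 295, and a snoRNA gene for 2 (0.667%, against 0.384%).

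Other members of ranks 21 to 50 were spread over unrelated roles. Ptpmeg2, a protein tyrosine phosphatase, had a summit 185 bp upstream of its start, with signals of 872 and 718 in the replicates. The intron of Tlk, the Tousled-like kinase of chromatin assembly, held a broad peak of 1550 bp with signals of 885 and 702. Alg3, a mannosyltransferase of protein glycosylation, had rank 28 with ranks 30 and 22, and its window holds a DRE. The summit nearest to chif, the fly Dbf4 of replication control, lay 982 bp upstream (rank 31). Piezo, a mechanically gated ion channel, had rank 34 and shares the region with Acbp1, whose start is also within 500 bp. The RNA-binding protein gene larp had rank 37, CenG1A, a GTPase-activating protein, rank 39, and Tcs5, which acts in tRNA modification, rank 44. SLC5A11 had a summit 180 bp upstream, with ranks 47 and 51. Less characterised genes at promoters were CG1635, CG18549, CG13390, CG1888, CG7841, CG31145 and CG10621, with ranks from 23 to 50 and signals from 1599 to 1248. CG32772 (rank 21) and CG3726 (rank 35) had intronic sites, fok (rank 49) a promoter site inside neb, and lncRNA:CR31840 (rank 43) a summit 2 bp from its start.

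Further down the ranking, genes of protein folding in the endoplasmic reticulum, of detoxification and of signalling were found, also chosen after their values were seen. Hrd3, a cofactor of the ubiquitin ligase that removes misfolded proteins from that compartment, had rank 51 with a summit 127 bp upstream of its start, and Herp, of the same pathway, had rank 290. Fkbp14, a prolyl isomerase, had rank 94 and TRAM, a translocation protein, rank 93. The glutathione S-transferase genes GstE12, GstE13 and GstS1 had ranks 76, 166 and 208, and Cpr, the reductase that feeds cytochrome P450 enzymes, rank 131. Xrp1, a stress-induced leucine zipper factor, had rank 205 with an intronic summit, and ranks 261 and 158 in replicates 2 and 3. Atat, a tubulin acetyltransferase, had rank 67, norpA, the phospholipase C of vision, rank 70, and yps, a Y-box RNA-binding protein, rank 71. The ferritin genes Fer2LCH and Fer1HCH both have starts within 500 bp of the summit at rank 238, with ranks 207 and 306.

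Since starts on both strands lay near 65 summits, the nearest gene was not the only candidate there. The following cases were picked after their annotation was seen. The summit at RpL13 (rank 74) was also within 500 bp of a start of Dref, which encodes the factor that binds the DRE. The site at Arl1 (rank 102) shares its promoter with brm, the ATPase of the Brahma remodelling complex. RpL14 (rank 114) shares it with Nelf-E, a subunit of the negative elongation factor, RpS27 with the nucleoporin gene Nup37, and Kap-alpha3 (rank 110), an importin, with Son. Counting genes with any start within 500 bp in place of the nearest gene, 94 of the 300 peaks had a gene on a list.

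A few genes were nearest to more than 1 of the 300 peaks. HmgZ, a high mobility group protein gene, had 3 at 565, 246 and 1565 bp upstream (ranks 46, 136 and 227), in a region it shares with HmgD. In replicates 2 and 3 their ranks were 44 and 49, 186 and 72, and 259 and 199. Beside HmgZ and CG34376, 15 genes had 2 each: AcCoAS, CG9837, Drat, PAN3, REPTOR, Rh5, Rtnl1, Sfxn1-3, cbt, for, lncRNA:CR44619, ph-p, sbb, shn and wun. PAN3 is part of a deadenylase complex (ranks 96 and 144), for is a cGMP-dependent kinase (ranks 87 and 241), and wun is a lipid phosphatase that guides germ cells (ranks 285 and 288). The 300 peaks had 281 distinct nearest genes and lay in 296 merged regions. Another thresholded summit lay within 1 kb of 130 peaks (43.3%), against 45.7% in ranks 301 to 1000 and 33.6% of all the others. Neighbouring sites are therefore not independent. By chromosome arm, 68 peaks were on 2L, 67 on 2R, 51 on 3L, 69 on 3R and 45 on X, and 0 on chromosome 4. The share was 22.7% on 2L and 17% on 3L, against 18.1% and 20.7% of the other peaks, of which 0.565% were on chromosome 4.

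Motifs were counted on both strands within 100 bp of the summit and in windows of the same length centred 600 bp to each side. The GATA site GATAAG was in 65 windows (21.7%, 17.4 to 26.7), in 11.5% of the flanks and in 25.6% of the windows of the other thresholded peaks. At promoters its share was 20.5% in the set and 19.9% in the others, and at distal sites 24.4% (16.7 to 34.2) and 34.3%. The short GAGA repeat GAGAG was in 24.7% (20.1 to 29.8), close to the 25.2% of the set's own flanks, and in 30.9% of the others. In ranks 301 to 1000 it was in 32.0% of windows and 20.9% of flanks. Within the set it was in 23.3% of promoter windows and 26.9% of their flanks, and in 27.8% (19.6 to 37.8) of distal windows and 21.1% of theirs. These letters overlap with GAGAGAG, which was in 5.33% of the set and 7.75% of the others.

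The TATA box TATAAA was in 30.7% (25.7 to 36.1) of the set, 21.2% of its flanks and 24.5% of the others. For the homeodomain core TAATTA the shares were 17.3% (13.5 to 22), 13% and 11.4%. The forkhead core TGTTTAC was in 11% of the set, 5.0% of the flanks and 8.15% of the others. These motifs are AT-rich, and the windows of the set had a mean GC content of 39.6%, against 41.9% in the others. Promoter summits 101 to 300 bp upstream had a GC content of 37.2% in the set and 39.7% in the others. At that position TATAAA was in 36.2% (27.2 to 46.2) of the set and in 29.2% of the others, a value inside the interval of the set. TAATTA was in 21.3% (14.2 to 30.6) and 13.9%. The part of base composition in these shares was not tested.

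**Figure D5:**
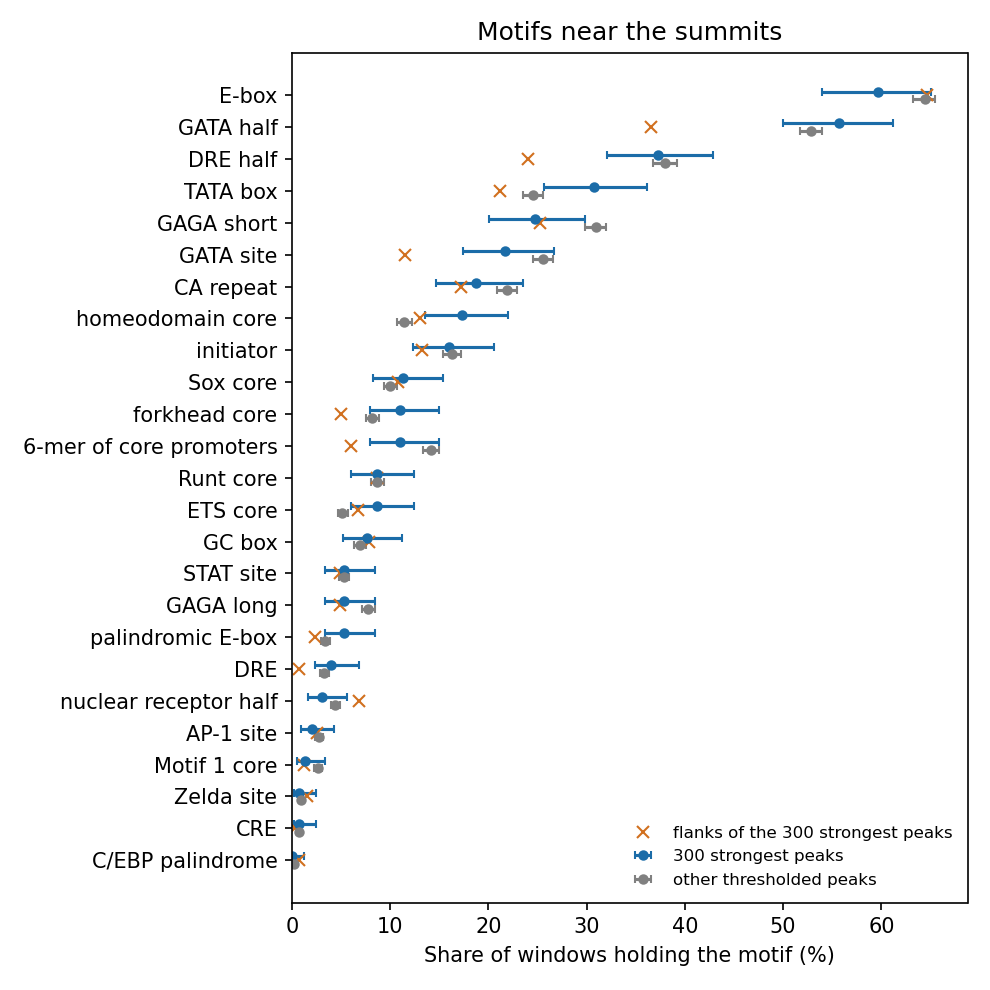
Share of windows of 201 bp that hold each of 25 motifs, for the 300 strongest peaks (blue) and the other thresholded peaks (grey), with 95% Wilson intervals, and for the flanks of the 300 peaks (crosses). The GATA site is in 21.7% of the set and 11.5% of its flanks, and the short GAGA repeat in 24.7% and 25.2%.

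The DRE TATCGATA was in 12 windows of the set (4.0%, 2.3 to 6.86), all at promoters, in 0.667% of the flanks and in 3.29% of the other peaks. At promoters its share was 5.71% in the set and 5.16% in the others, and 0.38% of the other distal windows held it. Of the 12, 7 were at ribosomal protein genes, among them RpS25, RpS10b, RpL19, RpL41, RpL34a and RpL28. The others included the windows of eEF1gamma, Alg3, CG9147 and CG11151. The palindromic E-box CACGTG was in 16 windows (5.33%, 3.31 to 8.49), in 2.33% of the flanks and in 3.38% of the other peaks. Of the 16, 8 were at ribosomal protein genes: RpL32, RpS4, RpL7, RpL24, RpL11, RpS28b, RpL8 and RpL37A. No ribosomal protein window held both, so that 15 of the 27 (55.6%) held 1 of these motifs, against 13 of the other 273 (4.76%). Of the 52 other peaks of the set within 100 bp of a start, 5 (9.62%) held either. Among the 66 ribosomal protein peaks outside the set, the DRE was in 18.2% and the E-box in 12.1%, and 19 (28.8%) held either. For the 24 of these up to rank 1000, the E-box was in 0 windows and either motif in 5 (20.8%). These comparisons were chosen after the motif counts were seen. GATAAG was in 2 of the 27 ribosomal protein windows (7.41%, 2.06 to 23.4) and in 23.1% of the other windows of the set. Outside the set its share was alike, with 5 of the 66 ribosomal protein peaks (7.58%) and 25.7% of the other peaks.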

How the data were processed

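The data are peak lists of 2 ChIP-seq libraries of 1 group, replicates 2 and 3. Per the file headers and labels, the authors deposited candidate peaks for each replicate and for their pool, and a thresholded list from an irreproducible discovery rate procedure, on dm6. Aligner and peak caller: not given in the sources used here. The deposited signal is in the authors' own units, the deposited −log10 q value comes from their peak caller, and the other deposited number used is the offset of the summit. Each candidate list holds 30000 lines, and the 7025 thresholded lines are exactly the 7025 highest of the pooled list. Depth is unknown, since the lists give no read counts.

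Lines were ranked by deposited signal and the first 300 taken. Summits were annotated against 23581 starts of 18164 genes, without transposable elements, in Ensembl release 115 (BDGP6.54). Classes were assigned in the order promoter (within 500 bp of a start), 5' UTR, coding exon, 3' UTR, intron, intergenic. A replicate's rank at a peak is that of the overlapping candidate with the nearest summit. Intervals are 95% Wilson intervals. A total of 35 gene lists and 25 motifs were used, and a gene on several lists counts in each. No test was run: the peaks were chosen on the measured signal, there is no second group, and peaks are not replicates. The members, lists and motifs were chosen with earlier results of these data known. Values are given for ranks 21 to 50, list members, genes with several peaks, the border, the 10 widest rank differences and the sites whose sequence is shown. Genes outside this rule are named as chosen after their values were seen, and 1 gene within it is not reported here. Functions checked on simulated data recovered what was planted. Python 3.11.15, numpy 2.4.6, pandas 2.3.3 and matplotlib 3.10.9 were used.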

Additional observations from a re-analysis of the deposited data

How the results depend on the processing

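Of 67 alternatives, 53 left a share inside its 95% Wilson interval or a count within a factor of 1.5. The promoter share of 70.0% became 75.3% in the 150 strongest peaks, 48.7% and 80.0% with promoter windows of 200 and 1000 bp, and 75.7% when any base of the peak counted. The intron share of 23% became 35.3% and 15.7% with these windows. The upstream share of 77.1% became 85% in the 150 strongest. GATAAG, in 21.7%, was in 11.3% and 31.3% with windows of 50 and 200 bp on each side, and GAGAG, in 24.7%, in 10.3% and 54.7%; in the 150 strongest GAGAG was in 20%. These follow from window length or from the choice of ranks. The DRE share of 4.0% became 0.0% at distal sites and 1.83% without ribosomal protein genes, an alternative added after seeing the data.

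With either replicate left out, the promoter share was 70.7% to 71.0%, the intron share 22.0% to 22.3%, the upstream share 76.9% to 77.9%, GATAAG 20% to 22.7%, GAGAG 25.0% to 25.7% and the DRE 4.33% to 4.67%. The 239 peaks matched in both replicates became 227 to 244 with other matching rules. With 2 libraries, no control list and no read counts, the spread between embryos is known for few values and enrichment over input is not used here. No paired analysis was possible because there is only 1 group.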
